A study of Rattus norvegicus with 6 samples.

Results

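The genes described here belong to the unfolded protein response and the chaperone machinery of the endoplasmic reticulum (ER). The set of 10 was given by name: Hspa5, Hsp90b1, Pdia4, Creld2, Herpud1, Derl1, Xbp1, Atf4, Ddit3 and Trib3. Each was followed through the array probe sets annotated to that symbol alone, and the one with the strongest mean signal across the 6 arrays stood for the gene. All 10 were found, on 14 probe sets, among 14217 genes with a named probe set, and all 14 probe sets lay above the signal filter that left 10585 genes for testing.

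The study profiled soft tissue that had healed around a titanium alloy implant (peri-implant soft tissue, 3 arrays) and mucosa that had healed over an extraction site with no implant (oral mucosal tissue, 3 arrays). All samples came from male rats of the outbred Sprague-Dawley strain, whose upper first molars were taken out on both sides at 4 weeks of age, so both tissues had gone through an extraction. The implant went into the left socket only, and tissue was collected 4 weeks after surgery from the left side for the implant group and the right side for the mucosal group. Tissue and side of the mouth therefore cannot be told apart. The labels do not state that replicates came from separate rats, so all p-values speak only to variation among these 6 samples, part or all of which could be technical. Values are log2 signals of Affymetrix 3′ expression arrays. The median signal per array was 6.62 to 6.78, and each array correlated more closely with its own group (mean r 0.969 to 0.981) than with the other group (0.934 to 0.942).

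The ER folds secreted and membrane proteins. When unfolded protein builds up there, 3 sensors in its membrane respond. IRE1 splices Xbp1 mRNA into a form that encodes an active transcription factor, ATF6 is cut by Golgi proteases to release another, and PERK phosphorylates the translation factor eIF2α, which slows protein synthesis while favouring translation of Atf4. Together these raise chaperones, disulfide isomerases and the machinery that sends misfolded protein to the proteasome, and under lasting stress the factor CHOP, encoded by Ddit3. Epithelium and fibroblasts of the oral mucosa secrete large amounts of matrix and surface proteins, which pass through this compartment. The probe sets do not separate spliced from unspliced Xbp1 mRNA, and mRNA levels do not measure phosphorylation or cleavage of the sensors.

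The best known promoter element of this response is the ER stress response element (ERSE), which ATF6 and XBP1 bind together with NF-Y. RefSeq promoter windows of rat build GRCr8, from 250 bases before the start site to 50 after it, were matched for 9 of the 10 genes, all but Derl1. Both strands of each window were searched for ERSE (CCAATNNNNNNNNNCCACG), for the shorter ERSE-II (ATTGGNCCACG), for the core of the XBP1 element UPRE (TGACGTGG) and for the ATF4 element of C/EBP-ATF type (TGATGCAAT). None is contained in another, but ERSE and ERSE-II both end in CCACG and the UPRE core ends in its reverse complement. ERSE was present in 4 of the 9 windows, those of Hspa5, Hsp90b1, Xbp1 and Creld2, and in 0.0657% of all 33469 windows. ERSE-II was present in that of Herpud1 and in 0.0508% of all windows. The UPRE core and the ATF4 element, held by 0.595% and 0.188% of all windows, had no exact match in the 9 windows, which says only that these letters are not there. The 200 bases before the start site are shown for the 5 genes with a match, because the values of these genes are read beside this shared element further on. Fixed letters of ERSE or ERSE-II are in capitals, and each sequence reads 5′ to 3′ on the strand of its gene.
Hspa5: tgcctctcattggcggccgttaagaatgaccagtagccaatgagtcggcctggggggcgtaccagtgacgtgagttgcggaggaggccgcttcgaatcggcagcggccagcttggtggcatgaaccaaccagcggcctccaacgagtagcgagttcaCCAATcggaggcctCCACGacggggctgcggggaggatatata
Hsp90b1: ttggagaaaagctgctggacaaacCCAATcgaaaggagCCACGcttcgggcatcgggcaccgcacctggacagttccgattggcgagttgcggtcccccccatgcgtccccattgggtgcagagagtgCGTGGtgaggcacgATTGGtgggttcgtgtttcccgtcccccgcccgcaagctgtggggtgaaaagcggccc
Xbp1: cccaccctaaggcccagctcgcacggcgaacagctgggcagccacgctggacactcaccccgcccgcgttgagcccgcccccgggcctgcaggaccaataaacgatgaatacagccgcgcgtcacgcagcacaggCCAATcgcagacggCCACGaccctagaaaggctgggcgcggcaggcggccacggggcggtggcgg
Creld2: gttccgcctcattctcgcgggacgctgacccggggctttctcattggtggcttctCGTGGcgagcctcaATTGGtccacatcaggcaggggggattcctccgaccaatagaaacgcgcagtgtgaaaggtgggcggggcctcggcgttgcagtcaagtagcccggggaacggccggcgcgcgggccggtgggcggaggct
Herpud1: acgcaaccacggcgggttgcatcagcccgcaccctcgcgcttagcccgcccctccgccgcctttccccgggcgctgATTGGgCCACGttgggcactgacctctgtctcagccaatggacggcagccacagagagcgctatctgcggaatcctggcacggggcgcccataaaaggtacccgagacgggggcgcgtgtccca
In GRCr8 these stretches lie at chr3:38452816-38453015 on the plus strand (Hspa5), chr7:23012294-23012493 on the minus strand (Hsp90b1), chr14:84604423-84604622 on the plus strand (Xbp1), chr7:121789184-121789383 on the plus strand (Creld2) and chr19:10614708-10614907 on the minus strand (Herpud1). For Creld2 and Herpud1 the start site used by the promoter table lies inside the gene's full span, downstream of its outermost start. The ERSE of Hspa5 begins 43 bases before the start site and that of Xbp1 65 bases before it. Hsp90b1 holds 2 copies, beginning 176 bases before the start in forward and 72 bases before it in reverse orientation. The Creld2 copy, in reverse orientation, begins 145 bases before the start. A match is a description of the sequence, not evidence of binding in these tissues.

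In peri-implant soft tissue, Trib3, Creld2 and Xbp1 were higher than in oral mucosal tissue, and Atf4 and the chosen probe set of Derl1 were lower, although another probe set of Derl1 was higher. The other 5 genes, among them the main chaperone gene Hspa5 and the stress factor gene Ddit3, did not pass the test. The differences were small: the largest, of Trib3 by its chosen probe set, was 1.71-fold. At 2-fold or more 0 of the 10 passed, while 5.38% of all genes did upward and 2.14% downward. Thus 5 of the 10 genes passed (limma adjusted p under 0.05 over all probe sets tested), where 26.1% of all genes tested passed. The 3 that were higher compare with 15.2% of all genes, and the 2 that were lower with 11.0%. Counted by probe set, 6 of the 14 passed, against 22.5% of all 18625. The median difference of the 10 was 0.09 on the log2 scale, against 0.03 over all 10585 genes. The median size of the difference, without sign, was 0.26 for the 10 and 0.24 for all genes. The groups did not overlap for 7 of the 10, 5 higher and 2 lower, where 41.9% of all genes had groups apart, 24.0% higher and 17.9% lower. For those 7 the exact two-sided permutation test over arrays gave p = 0.1, the smallest that 3 arrays against 3 allow.

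**Figure D1:**
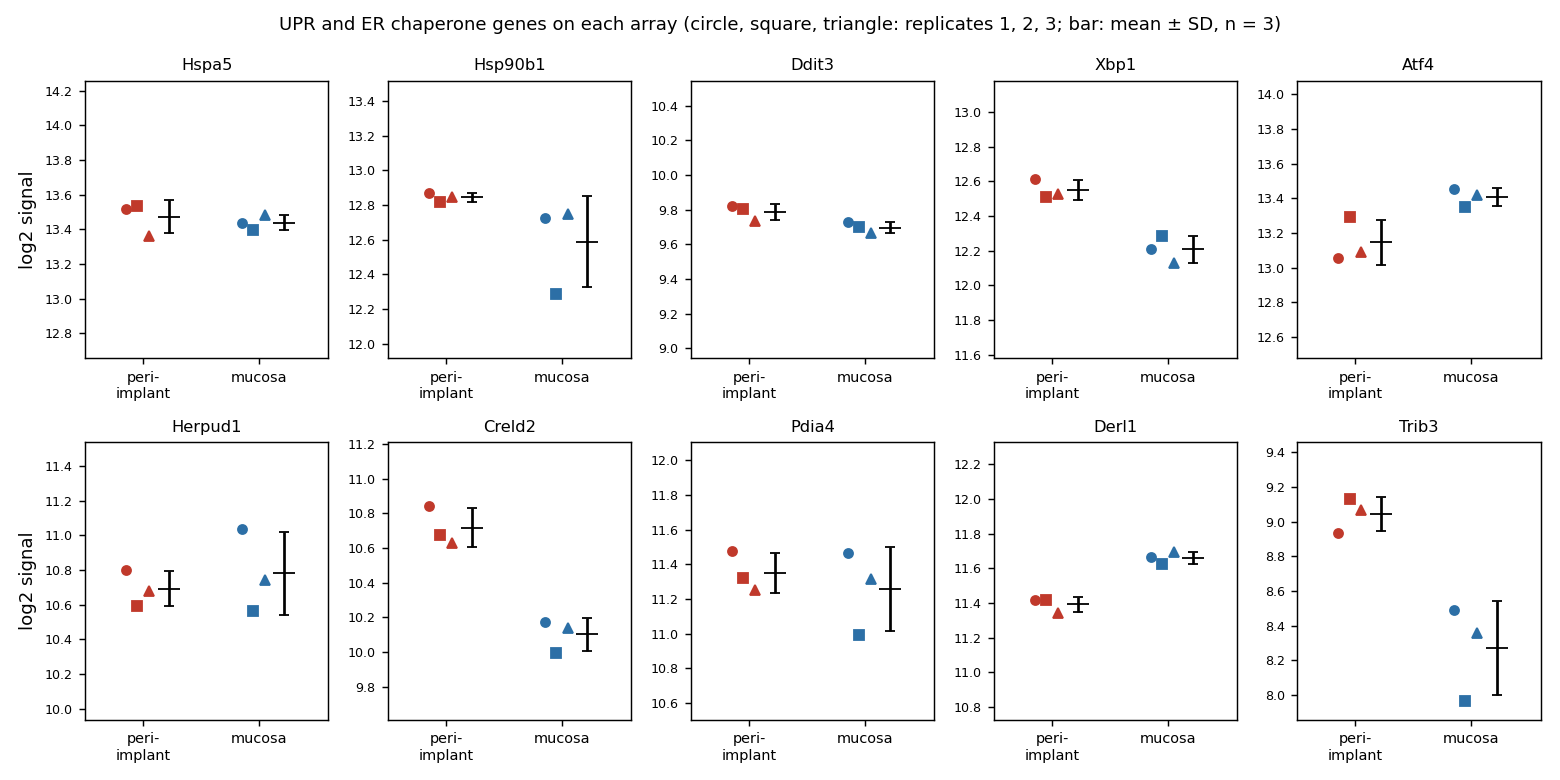
Log2 signal of each of the 10 genes on each array, with peri-implant soft tissue in red on the left of each panel and oral mucosal tissue in blue on the right; black bars are mean ± SD (n = 3), and all panels span the same range of log2 units. The groups stand clear of each other for Xbp1, Creld2, Derl1 and Trib3, narrowly so for Atf4, Hsp90b1 and Ddit3, and overlap for Hspa5, Herpud1 and Pdia4.

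Among the chaperones, Hspa5 encodes BiP (GRP78), the ER Hsp70 that binds unfolded chains and holds the 3 sensors inactive. Its log2 signal was 13.52, 13.54 and 13.36 in peri-implant tissue, against 13.44, 13.40 and 13.48 in mucosa. The groups overlapped, with the highest and the lowest of the 6 values both in peri-implant tissue. The difference was 0.03 (SE 0.08, adjusted p = 0.807 in limma), and its 95% interval of -0.13 to 0.20 runs from 0.911-fold to 1.15-fold. These values lay at least 2.64 log2 units below the highest signal of their arrays. Hsp90b1 encodes GRP94, the Hsp90 of the ER, whose clients include integrins and Toll-like receptors. It stood at 12.87, 12.82 and 12.84 in peri-implant tissue, against 12.73, 12.28 and 12.75 in mucosa. The peri-implant values lay close together and above all 3 mucosal values, of which replicate 2 was lower than the other two. The difference was 0.26 (SE 0.11) and did not pass (adjusted p = 0.113, limma). Without mucosal replicate 2 it was 0.11 (adjusted p = 0.384), whereas without mucosal replicate 3 it was 0.34 and passed (adjusted p = 0.0471), as it did after quantile normalisation (0.31, adjusted p = 0.0322). The RefSeq table lists 2 pseudogenes named for Hsp90b1, 1 for Pdia4 and 5 for Derl1, and whether their transcripts add to these probe sets was not tested.

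Of the 2 genes for disulfide isomerases, 1 passed, where 26.1% of all genes tested did. Creld2, an ER-resident protein with disulfide isomerase activity, had 10.84, 10.68 and 10.63 in peri-implant tissue, against 10.17, 9.99 and 10.14 in mucosa. The lowest peri-implant value lay 0.46 above the highest mucosal value, the widest gap among the 10 genes. The difference was 0.61 (SE 0.09), or 1.53-fold with a 95% interval of 1.34 to 1.75 (adjusted p = 2.41e-04, limma), and it passed under all 15 alternative settings. Pdia4 encodes ERp72, another disulfide isomerase of the ER lumen. Its signal was 11.48, 11.32 and 11.25 in peri-implant tissue, against 11.47, 10.99 and 11.31 in mucosa. The groups overlapped, again with mucosal replicate 2 at the bottom, and the difference of 0.09 (SE 0.11) did not pass (adjusted p = 0.600, interval -0.14 to 0.33). It turned to -0.04 without mucosal replicate 2.

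Herpud1 and Derl1 act in ER-associated degradation, which moves misfolded proteins back to the cytosol. Herpud1 organises the ubiquitin ligase complex in the ER membrane and is a strong target of the stress response in cultured cells. Its values were 10.80, 10.60 and 10.68 in peri-implant tissue, against 11.04, 10.56 and 10.74 in mucosa, so the mucosal values spanned the peri-implant ones. The difference was -0.09 (SE 0.11, adjusted p = 0.627 in limma), with an interval of -0.33 to 0.15, and over the alternatives it ran from -0.20 to 0.04.

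Derl1 encodes derlin-1, a rhomboid-like protein of the retrotranslocation channel, and its 3 probe sets gave 3 different answers. The brightest, 1389615_at, had 11.42, 11.42 and 11.34 in peri-implant tissue, against 11.66, 11.62 and 11.70 in mucosa. It was lower in peri-implant tissue, with a difference of -0.27 (SE 0.07, adjusted p = 0.0130, limma) with groups apart. Probe set 1374581_at had 10.64, 10.63 and 10.76 in peri-implant tissue, against 10.48, 10.31 and 10.42 in mucosa. It was higher, by 0.27 (SE 0.08, adjusted p = 0.0296, limma), also with groups apart. Probe set 1367529_at had 10.14, 10.17 and 10.25 in peri-implant tissue, against 10.13, 10.30 and 10.34 in mucosa, and its difference of -0.07 did not pass (adjusted p = 0.628). With the mean of the 3 the difference was -0.02 (adjusted p = 0.862), so the call for Derl1 rests on the choice of probe set and gives no direction for the gene. The call of the chosen probe set was also lost with median centring (adjusted p = 0.0668), without the variance trend (0.0887) and without peri-implant replicate 3 (0.0531). For that probe set alone the adjusted p ran over 0.00675 to 0.0887 and the difference stayed between -0.29 and -0.24.

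**Figure D2:**
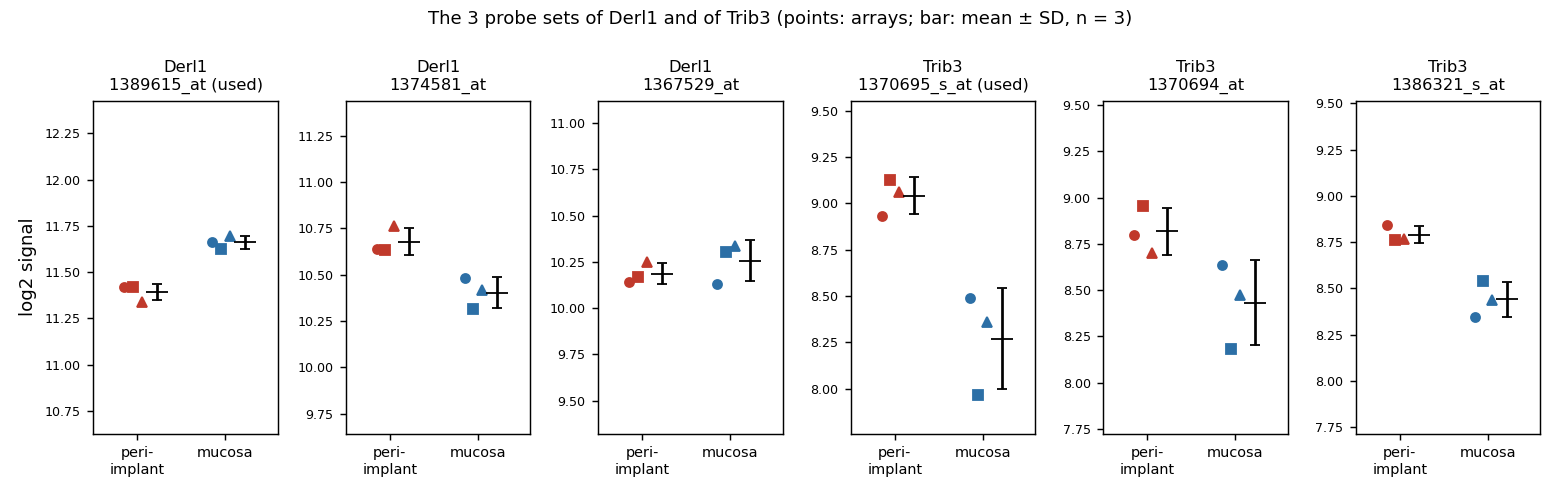
Log2 signal on each array for the 3 probe sets of Derl1 and the 3 of Trib3, peri-implant soft tissue in red on the left and oral mucosal tissue in blue on the right of each panel, with mean ± SD (n = 3) as black bars. Derl1 has 1 probe set lower, 1 higher and 1 with overlapping groups, whereas for Trib3 all 3 have every peri-implant value above every mucosal value.

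Of the transcription factors, Xbp1 encodes the factor made active by IRE1 splicing, which is also needed for the secretory machinery of plasma cells and gland cells. Its signal was 12.61, 12.51 and 12.53 in peri-implant tissue, against 12.21, 12.28 and 12.13 in mucosa. All peri-implant values lay above all mucosal values, with a gap of 0.23. The difference was 0.34 (SE 0.07), or 1.27-fold with an interval of 1.14 to 1.41 (adjusted p = 0.00368, limma). The call was lost only without the variance trend (adjusted p = 0.0562, over a range of 7.31e-04 to 0.0562 in 15 alternatives).

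Atf4 encodes the factor of the PERK arm and of the wider integrated stress response, which is controlled mainly at translation. It moved the other way, at 13.05, 13.29 and 13.09 in peri-implant tissue, against 13.46, 13.35 and 13.42 in mucosa. Peri-implant replicate 2 lay only 0.06 below the lowest mucosal value. The difference was -0.26 (SE 0.08), which is 1.20-fold higher in mucosa (adjusted p = 0.0360, limma). This call was lost in 8 of 15 alternatives, with an adjusted p of up to 0.153, and the difference stayed between -0.34 and -0.17. Ddit3 encodes CHOP, which promotes cell death under lasting stress. It had 9.82, 9.81 and 9.73 in peri-implant tissue, against 9.73, 9.70 and 9.66 in mucosa. The groups were apart by only 0.0042, and the difference of 0.09 (SE 0.09) did not pass (adjusted p = 0.528, limma; interval -0.10 to 0.28).

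Trib3, a pseudokinase gene induced by ATF4 and CHOP whose product binds AKT and ATF4 in turn, showed the largest difference of the 10. Its brightest probe set, 1370695_s_at, had 8.93, 9.13 and 9.06 in peri-implant tissue, against 8.49, 7.97 and 8.36 in mucosa. The peri-implant values lay within 0.20 of each other, while the mucosal values spread over 0.52. The difference was 0.77 (SE 0.16), 1.71-fold with an interval of 1.35 to 2.16 (adjusted p = 0.00291, limma), and it passed under all 15 alternatives. Without mucosal replicate 2 it was 0.62 (adjusted p = 0.00706). The other probe sets had groups apart in the same direction but did not pass. Probe set 1370694_at had 8.80, 8.95 and 8.70 in peri-implant tissue, against 8.64, 8.18 and 8.47 in mucosa, a difference of 0.39 (adjusted p = 0.0918, limma). Probe set 1386321_s_at had 8.84, 8.76 and 8.77 in peri-implant tissue, against 8.35, 8.54 and 8.44 in mucosa, a difference of 0.35 (adjusted p = 0.0774, limma). With the mean of the 3 the difference was 0.50 (adjusted p = 0.0160, limma), so its direction was shared by the probe sets and its size was not. That mean lay below the 0.61 of Creld2, so the rank of Trib3 as largest rests on the chosen probe set.

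**Figure D3:**
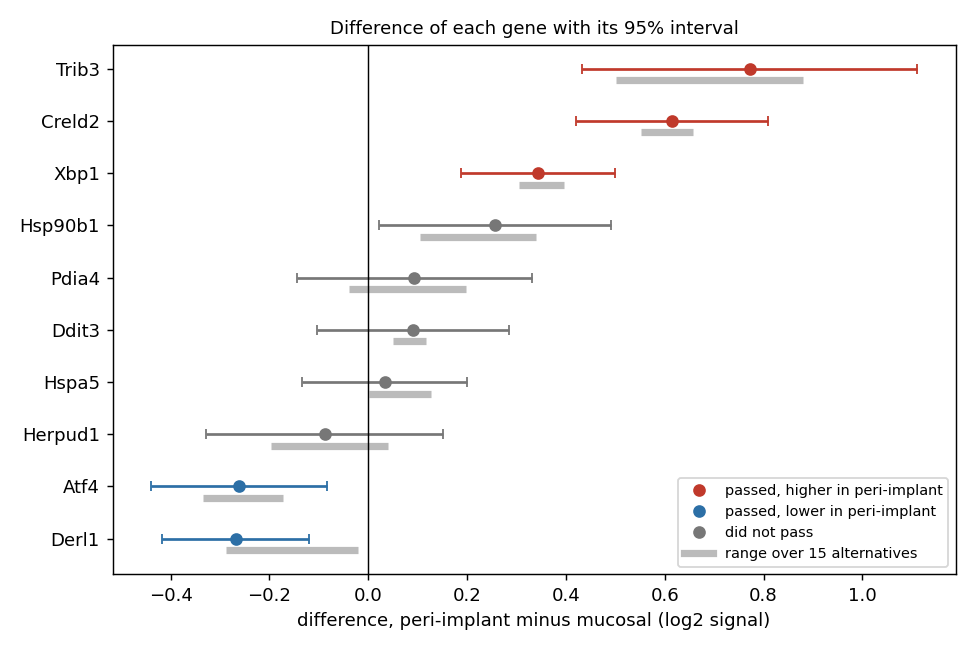
Difference of each gene in log2 units, peri-implant minus mucosal, with its 95% interval from limma; grey bars give the range of the difference over 15 alternative settings. Trib3, Creld2 and Xbp1 lie right of 0 with their whole intervals and grey bars, as does Hsp90b1 at 0.02 to 0.49 and 0.11 to 0.34, although it did not pass after adjustment, and the grey bar of Derl1 reaches -0.02, where its 3 probe sets were averaged.

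Set beside the promoter sequences shown above, 2 of the 4 genes with an ERSE passed, where 26.1% of all genes tested did. Creld2 and Xbp1 were higher by 0.61 and 0.34, and Hsp90b1 and Hspa5, at 0.26 and 0.03, did not pass. The differences between these genes were not tested. The gene with an ERSE-II, Herpud1, stood at -0.09. Of the genes with a window and neither element, Trib3 and Atf4 passed, and Ddit3 and Pdia4 did not. Trib3, with the largest difference by its chosen probe set, had none of the 4 motifs in its window.

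The spread between mucosal arrays was not the same for all 10 genes. Mucosal replicate 2 had the lowest of the 3 mucosal values for 8 of the 10, where it was the lowest for 34.0% of all genes tested. The median deviation of the 10 genes from their mucosal mean was -0.08 on that array, against 0.01 over all genes tested. The exceptions were Xbp1, which was highest there, and Ddit3, which was lowest on replicate 3. Mucosal replicate 1 was the highest for 6 of the 10 and the lowest for 0, against 28.1% and 30.7% of all genes tested. In peri-implant tissue replicate 3 was the lowest for 5 of the 10 and the highest for 0, against 34.9% and 36.6% of all genes tested. Peri-implant replicate 1 was the highest for 7 of the 10, against 34.5% of all genes tested. The 3 higher calls remained without mucosal replicate 2, and the 2 lower ones as well. Nothing in the labels sets that array apart.

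**Figure D4:**
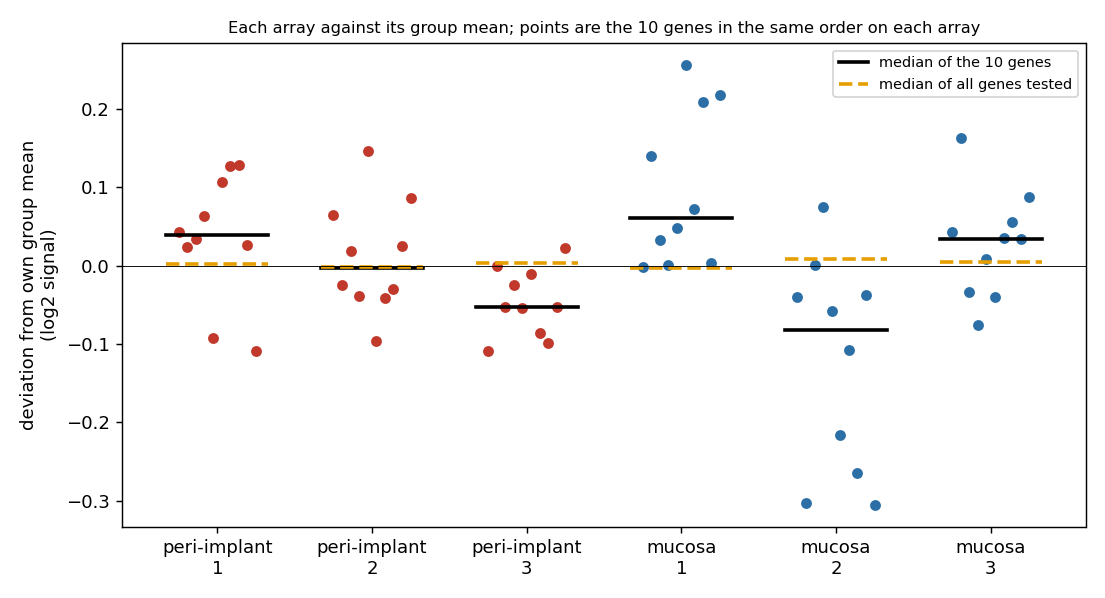
Deviation of each of the 10 genes (points) from the mean of its own group on each array, in log2 units, peri-implant arrays in red on the left and mucosal arrays in blue on the right; black lines are medians of the 10 genes and dashed lines medians of all genes tested. On mucosal replicate 2 the median of the 10 genes is -0.08, while the dashed lines stay within 0.01 of 0 on every array.

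Other genes of the response were followed through 6 lists with 101 genes, of which 96 were on the array and 93 passed the signal filter. Among these, 14 (15.1%) were higher and 12 (12.9%) lower in peri-implant tissue, close to the 15.2% and 11.0% of all genes, and 67 did not pass. Their median difference was 0.08, and the median size without sign was 0.19, against 0.24 over all genes. The count of higher genes was 4 without the variance trend and 6 with median centring, and it was also 6 without peri-implant replicate 2 or replicate 3 and 9 without mucosal replicate 1. The count of lower genes was 7 without the variance trend.

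In the list of the sensors and their proteases, 12.5% of the 8 tested genes passed, against 26.1% of all genes. Of the 8, 1 was higher and 0 were lower, also 1 and 0 at an unadjusted limma p under 0.05. Their median difference was 0.12. The IRE1 gene Ern1 was not matched to a probe set, and Creb3l2 lay below the filter. The gene that was higher was Mbtps1, the site-1 protease that cuts ATF6, at 10.31 ± 0.09 in peri-implant tissue and 10.03 ± 0.06 in mucosa (mean ± SD, n = 3 each; adjusted p = 0.0347, limma). In 9 of 15 alternatives it was not called. Of 18 ER co-chaperones and lectins, 2 passed as higher and 1 as lower (16.7% called), around a median difference of 0.08. Dnajc3, the co-chaperone p58IPK that also inhibits PERK, was higher by 0.30 (SE 0.08, limma adjusted p = 0.0145), although 3 alternatives did not call it. Ppib, the prolyl isomerase cyclophilin B that works on collagen, was higher by 0.24. Fkbp2, another prolyl isomerase, fell by 0.29. The calls for Ppib and Fkbp2 were lost in 8 and 4 alternatives. Dnajb9, encoding ERdj4 and a sensitive target of XBP1, stood at 9.84 ± 0.12 in peri-implant tissue and 9.39 ± 0.37 in mucosa and just missed the threshold (adjusted p = 0.0511, limma).

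Of 13 disulfide isomerases and oxidoreductases, 1 passed as higher and 2 as lower, around a median of 0.11. That is 23.1% called, against 26.1% of all genes. Erp29 was higher by 0.33, while Txndc5, an isomerase that acts on matrix proteins, fell by 0.29 and Ero1a, the oxidase that recharges the isomerases, by 0.34. These calls were lost in 5, 1 and 7 alternatives. In ER-associated degradation, with 20 genes tested, 2 passed in each direction (20% called) and the median was -0.01. Ube2g2, a ubiquitin-conjugating enzyme of this pathway, fell by 0.69 (SE 0.09, limma adjusted p = 6.26e-05). Herpud2, a relative of Herpud1, fell by 0.48 (SE 0.08, limma adjusted p = 8.48e-04). Both calls held in all 15 alternatives. Ubxn8 was higher by 0.99 and Erlec1, a lectin for misfolded glycoproteins, by 0.32, calls that were lost in 2 and 7 alternatives. Among 26 ER translocation and N-glycosylation genes 4 passed as higher and 0 as lower, which is 15.4% called. At an unadjusted limma p under 0.05 the counts were 4 and 2. The 4 that passed were Sec61a1, the pore subunit of the translocon, higher by 0.45, and Ssr2, Stt3b and Srp9, by 0.36, 0.31 and 0.27. The calls for Ssr2, Stt3b and Srp9 were lost in 1, 3 and 8 alternatives. With the mean of the probe sets Sec61a1 differed by 0.03 (adjusted p = 0.943, limma) and Stt3b by 0.05 (adjusted p = 0.718, limma), and neither was called. Sec63, a translocon partner named after its values were seen, stood at 0.11 and did not pass, but at -1.18 it passed as lower with that mean (adjusted p = 0.00227, limma). The count of 0 lower thus rests on the choice of probe set.

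In the PERK list, 3 of 9 genes were higher and 0 lower at an unadjusted limma p under 0.05. After adjustment 2 were higher and 0 lower, 22.2% called against 26.1% of all genes. Dnajc3, given above, was 1 of them, and Eif2ak4, which encodes the amino acid sensor kinase GCN2, was the other, at 8.42 ± 0.50 in peri-implant tissue and 7.61 ± 0.25 in mucosa (limma adjusted p = 0.0304). Its call was lost in 6 alternatives. Ppp1r15a, encoding GADD34, which restores translation, stood at 9.44 ± 0.08 in peri-implant tissue and 8.99 ± 0.33 in mucosa (adjusted p = 0.0502, limma).

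Targets of ATF4 and CHOP included the largest differences of all 6 lists, in both directions. Of 27 tested genes 7 were higher, 8 were lower and 12 did not pass, 55.6% called against 26.1% of all genes, with a median difference of 0.09. The list was chosen with earlier results of these data known, so this share describes the list only. Slc7a11, the cystine transporter subunit xCT, was higher by 1.49, at 10.79 ± 0.04 in peri-implant tissue and 9.30 ± 0.08 in mucosa (limma adjusted p = 5.74e-08). Bcl2l11, encoding the pro-apoptotic protein BIM, was higher by 1.32, and Psat1, Phgdh, Gadd45a, Atf3 and Aars1 by 0.50, 0.70, 0.36, 0.46 and 0.24. Psat1 and Phgdh are enzymes of serine synthesis. Nupr1, a stress-induced chromatin protein, fell by 1.74, at 8.45 ± 0.13 in peri-implant tissue and 10.18 ± 0.05 in mucosa (adjusted p = 1.18e-07, limma). Cth, the cysteine-producing enzyme cystathionase, fell by 1.20. Named after their values were seen, the lipoprotein receptor Vldlr fell by 1.03, the asparagine synthetase gene Asns by 0.53, Chac1, which degrades glutathione, by 0.43, the mitochondrial folate enzyme Mthfd2 by 0.78 and the amino acid transporter Slc7a1 by 0.23. Ero1a, given above, was the eighth. The calls for Slc7a11, Nupr1, Cth, Psat1, Vldlr, Asns and Chac1 held in all 15 alternatives, that for Bcl2l11 was lost with the mean of its probe sets, and those for Atf3, Aars1, Phgdh and Gadd45a were lost in 10, 7, 5 and 2. Those for Slc7a1, Ero1a and Mthfd2 were lost in 10, 7 and 5. Trib3, from the same branch, thus rose together with Slc7a11 and Psat1 while Asns and Chac1 fell.

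**Figure D5:**
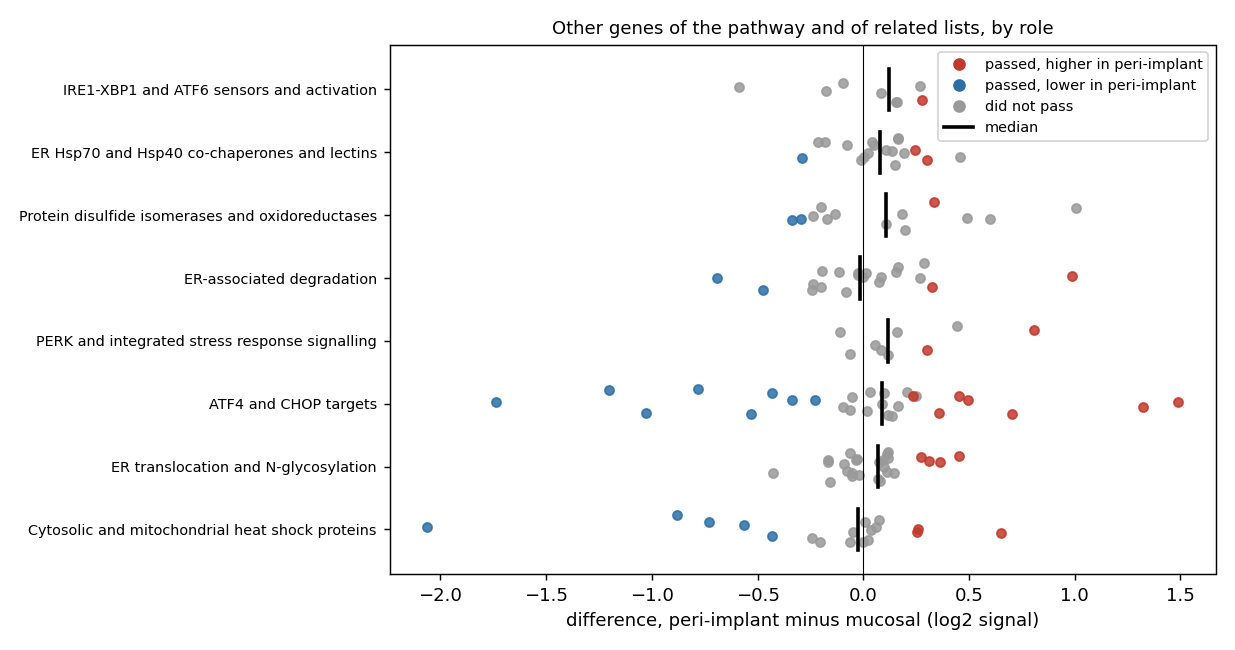
Difference in log2 units, peri-implant minus mucosal, for every tested gene of 8 lists, 1 point a gene; red passed higher, blue passed lower, grey did not pass, and black ticks are list medians. Points of the ATF4 and CHOP list reach from -1.74 to 1.49, and the list medians lie between -0.02 and 0.12.

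Markers of epithelium and of connective tissue gave signal in both tissues, and several marker lists differed in signal between them. For comparison, 15.2% of all genes tested were higher and 11.0% lower. All 12 keratinocyte markers passed the signal filter, with 4 higher and 1 lower in peri-implant tissue. Macrophage markers were higher in 9 of 10 tested, with a summed linear signal of 10298 to 11134 in peri-implant tissue against 5395 to 5568 in mucosa, and Cd163 lay below the filter. T cell markers were higher in 5 of 5 tested, with sums of 1536 to 1637 against 377 to 513 in mucosa, while 5 others, Cd3d, Cd4, Cd8a, Cd8b and Trat1, lay below the filter. Neutrophil markers were higher in 3 of the 4 tested, which were S100a8, S100a9, Csf3r and Cxcr2, while Itgam and Mmp8 lay below the filter. The sums of this list were 118343 to 160878 against 26348 to 28811 in mucosa. Whether this signal came from neutrophils was not tested. Among 10 fibroblast markers 7 passed as lower and 1 as higher, with sums of 39995 to 41838 against 64272 to 70480 in mucosa. Of 4 tested erythrocyte markers 3 passed as higher (all 4 had an unadjusted limma p under 0.05), with sums of 52725 to 73208 against 39290 to 53162 in mucosa. Epb42 lay below the filter. Of osteoblast and osteoclast markers 2 of 3 were lower, with sums of 4332 to 4369 against 4365 to 5036 in mucosa, and Bglap, Calcr and Dmp1 lay below the filter. Of 8 endothelial markers 1 passed as higher and 0 as lower, with 3 higher at an unadjusted limma p under 0.05. Of 3 tested skeletal muscle markers 0 passed, and 7 others lay below the filter.

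Plasma and B cells and gland cells, which carry much ER, had few markers in range. Of 8 plasma and B cell markers on the array 4 (Cd79b, Ms4a1, Pou2af1 and Tnfrsf17) lay below the filter. Jchain was higher by 3.44, Sdc1, which keratinocytes also express, fell by 0.32, and Mzb1 stood at 6.64 ± 0.54 in peri-implant tissue and 6.08 ± 1.11 in mucosa. Prdm1 stood at 11.04 ± 0.06 in peri-implant tissue and 11.08 ± 0.10 in mucosa. The sums over the list were 16916 to 17399 in peri-implant tissue against 20163 to 21752 in mucosa. The log2 sums differed by -0.27 on average, close to the -0.32 of Sdc1, which carries most of the summed signal. Of 10 salivary gland markers 7 lay below the filter, Lpo was higher by 2.16 and Aqp5 fell by 1.90, with sums of 2197 to 2333 against 845 to 949 in mucosa. No marker of any list was at 0 on every array. The part of these cell types in the results for the 10 genes was not tested. In bulk tissue, fewer cells of a type and less RNA per cell cannot be told apart.

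The profile of Hspa5 over the 6 arrays was most like those of Med10, Ttl, Ubtf, Bag6 and Pdlim2 among tested genes outside the set, with Pearson r of 0.987, 0.982, 0.979, 0.977 and 0.976. None of these 5 differed between the tissues past the threshold, and with 6 arrays and 10575 genes to choose from, such values describe these arrays only.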

How the data were processed

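Biotin-labelled RNA from 6 samples was hybridised to 1 Affymetrix array each, per the labels' protocols. The authors deposited log2 signals for 31099 probe sets, 57 of them controls. Scaling was read from the values: the linear mean trimmed by 2% at each end was 500.2 on every array. For software and background method, nothing is given in the sources used here. Signals were used as deposited. Probe sets with a mean above the 40th percentile (5.68) were tested, 18625 in all. Precision is limited by 3 arrays a group.

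Gene names came from the array's annotation: 20826 probe sets had 1 symbol, 436 several and 9780 none. Current RefSeq names (GRCr8) served to match lists, and 237 of 262 list genes were found, 4 list entries by synonym.

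Groups were compared with limma 3.58.1 in R 4.3.3 (lmFit, eBayes with variance trend, two-sided), Benjamini-Hochberg adjusted over all 18625, at a threshold of 0.05. The fit was tested on simulated data. All differences are peri-implant minus mucosal. The 10 genes and all lists were chosen with earlier results of these data known. Named were the 10 genes, up to 4 genes with the smallest p in each list, and genes called against the majority of their list. Vldlr, Asns, Chac1, Mthfd2, Slc7a1, Sec63, Hspb1, Ppm1l, Calr and Canx were named after their values were seen. Replicate numbers were not used to pair samples in the main fit, as the labels state no pairing. Deviations of same-numbered arrays from their group means correlated at 0.01, -0.08 and 0.03. With so few arrays a group, these values cannot exclude pairing. Alternatives, 15 in all, changed the filter, scaling, floor, variance model, probe set rule, block or arrays used.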

Additional observations from a re-analysis of the deposited data

How the results depend on the processing

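The 3 higher calls among the 10 genes were 2 without the variance trend, 4 after quantile normalisation and 3 to 4 when single arrays were left out. The 2 lower calls were 1 without a filter, after quantile normalisation and with the mean of probe sets. They were 0 with median centring and without the variance trend, where limma's unadjusted p was under 0.05 for 2 genes in each, and 0 to 2 when single arrays were left out. For the 93 other genes of the response, the 14 higher calls became 6 with median centring, 4 without the variance trend and 6 to 11 without single arrays. The 12 lower calls became 7 without the variance trend and 8 to 12 without single arrays. The cause was not tested. With the replicate number as a block the counts were 3 and 2 for the 10 genes, 13 and 12 for the others, and 4076 probe sets against 4188. The labels state no pairing by number, the data cannot exclude it, and this block changed no call among the 10. Over all probe sets, counts ran from 2864 without the variance trend to 4360 after quantile normalisation. Median centring and quantile normalisation moved the median of all genes by less than 0.1. Of the 10 genes 6 kept their side of the threshold under all 15 alternatives. The mean of probe sets gave no count over all probe sets. Arrays limit small differences: standard errors of the 10 genes were 0.07 to 0.16.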

Other observations

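Heat shock proteins of the cytosol and mitochondria, which fold proteins outside the ER, included larger falls than the ER chaperones. Of 18 tested genes 3 were higher and 5 lower in peri-implant tissue, 44.4% called against 26.1% of all genes. This list too was chosen with earlier results of these data known, so the share describes the list only. The median difference of the 18 was -0.02. Hspa1b, Hspa8 and Hsp90aa1 of this list were not matched to a probe set. Hspb8, a small heat shock protein, fell by 2.06, at 10.54 ± 0.07 in peri-implant tissue and 12.61 ± 0.09 in mucosa (mean ± SD, n = 3 each; adjusted p = 8.40e-10, limma). Its partner in selective autophagy, Bag3, fell by 0.43, the inducible Hsp70 gene Hspa1a by 0.73 and Dnajb4 by 0.88. Hspb1, named after its values were seen, fell by 0.56 (limma adjusted p = 0.0110). Against these, Hspa4l was higher by 0.65, Dnaja1 by 0.26 and the mitochondrial Hsp70 gene Hspa9 by 0.25. The calls for Hspb8, Bag3, Hspa1a, Dnajb4 and Hspa4l held in all 15 alternatives, and those for Dnaja1 and Hspa9 were lost in 7 each. That for Hspb1 was lost in 3.

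Over the whole RefSeq promoter table, 21 gene symbols had an ERSE in their window, and 15 of them were tested on the array. This set was put together after the values of the 10 genes were known. Among the 15, 4 were higher and 0 lower, also 0 lower at an unadjusted limma p under 0.05, with a median difference of 0.25 against 0.03 over all genes, of which 15.2% were higher and 11.0% lower. The 15 include Hspa5, Hsp90b1, Xbp1 and Creld2, already described, and Dnajc3, Calr and Canx, which the lists above also hold. Of the 4 higher calls, those of Creld2, Xbp1 and Dnajc3 were thus known beforehand. Counts and median therefore describe this set only, and a relation to the element was not tested. Besides Creld2 and Xbp1, the higher ones were Dnajc3 and the phosphatase gene Ppm1l, at 0.30 and 0.99 (limma adjusted p = 0.0145 and 7.69e-04). The lectin chaperones Calr and Canx, at -0.08 and 0.0033, did not pass.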
